A study of Mus musculus with 8 samples.

Results

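Genes that act on the Notch pathway, other than its ligands and receptors, were examined in RNA of 8 libraries from mouse skeletal muscle. They were chosen by name for their known roles, and each was found as 1 row among the 36048 genes of the deposited gene table (9 of 36048). The members were the Fringe genes Lfng, Mfng and Rfng, the fucosyltransferase gene Pofut1, the protease genes Adam10 and Adam17, the gamma-secretase subunit gene Ncstn, the DNA-binding effector gene Rbpj and the pathway inhibitor gene Numb. The groups were endothelial cells of the vessel wall (EC, n = 3), the stem cells of muscle, called satellite cells (SC, n = 2, replicates 1 and 3), and single muscle fibres (SMF, n = 3). Per the labels, about 100000 EC or SC isolated from hindlimb muscles by FACS (fluorescence-activated cell sorting) went into each library, whereas SMF libraries came from the EDL muscle (extensor digitorum longus), as 100 intact fibres chosen by hand after a wait of 3 h. The labels name no genotype or treatment for any group, nor a strain, an age, sorting markers or the number of animals. Population, muscle of origin and way of isolation differed together and cannot be told apart. Since nothing says that replicates came from separate animals, p-values reflect the spread among the libraries alone, and this spread may be technical.

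Notch is a receptor that sends a signal between touching cells. In the endoplasmic reticulum POFUT1 adds O-fucose to its extracellular repeats, and the Fringe enzymes LFNG, MFNG and RFNG extend this sugar in the Golgi, which changes how the receptor responds to Delta and Jagged ligands. After ligand binding, ADAM10 (or, in some settings, ADAM17) cuts the receptor outside the membrane, the gamma-secretase complex with its subunit nicastrin cuts it within the membrane, and the freed intracellular domain joins RBPJ on DNA to switch on target genes. NUMB, an endocytic adaptor, counteracts the receptor and is shared unequally between daughter cells of dividing progenitors. In muscle, Notch signalling with Rbpj is known to keep satellite cells quiescent, and in vessels it takes part in arterial identity and sprouting.

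For Rbpj, a near-identical sequence matters for reading the values. The deposited table also holds Rbpsuh-rs3, listed by RefSeq as Rbpj-ps3, a processed copy without introns at chr6:46529151-46530884 (GRCm38.p6), within the span of Cntnap2. Its GENCODE transcript of 1441 bases was 99.7% identical to the Rbpj transcript ENSMUST00000037618, with 4 substitutions and 0 gaps, and 1239 of its 1392 windows of 50 bases (89.0%), the length of a read, were found unchanged in Rbpj. The substitutions were T310C, C949A, G952A and A1088C, with the Rbpj base first and positions counted from 1 at the 5′ end of the copy's transcript. Of 7367 such windows in protein-coding Rbpj transcripts, 1322 (17.9%) were found in another gene, and 1239 in the copy. Stretches around the first and the last substitution are shown 5′ to 3′. Within the copied span, only reads over such bases, in capitals, distinguish the copy from Rbpj.
Rbpj at T310C: gaagaactactgTacagccaaaaca
copy at T310C: gaagaactactgCacagccaaaaca
Rbpj at A1088C: actccaaatttaAgagtgtggtttg
copy at A1088C: actccaaatttaCgagtgtggtttg

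For Numb, the exons that define its isoforms are shown, since the transcript values below turn on them. Capitals mark the exon of 33 bases that inserts into the phosphotyrosine-binding (PTB) domain and the exon of 147 bases that inserts into the proline-rich region (PRR), each with the transcript bases on either side in lower case, from GENCODE transcripts of the identifiers listed in the deposited table.
PTB exon: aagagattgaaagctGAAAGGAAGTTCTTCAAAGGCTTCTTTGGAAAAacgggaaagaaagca
PRR exon: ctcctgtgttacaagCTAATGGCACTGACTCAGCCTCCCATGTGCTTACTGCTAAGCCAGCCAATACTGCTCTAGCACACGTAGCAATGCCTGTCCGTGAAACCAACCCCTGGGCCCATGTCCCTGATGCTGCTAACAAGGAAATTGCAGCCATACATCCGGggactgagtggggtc
junction without the PTB exon: aagagattgaaagctacgggaaagaaagca
junction without the PRR exon: ctcctgtgttacaagggactgagtggggtc

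The 250 bases before the transcription start, taken from RefSeq on GRCm38.p6, were found for 8 of the 9 genes, all but Mfng. The RBPJ core motif TGGGAA, searched on both strands (TTCCCA on the other), was present for Lfng and Rbpj and not in the windows of the other 6 genes, against 21.6% of 32851 promoter windows of this length. Lfng and Rbpj are shown because they hold the motif of the pathway's own effector, in capitals, while their levels differed between EC and SC in opposite directions. A match describes letters only and shows no binding. In Lfng (chr5:140607091-140607340, plus strand) the matches began 135 and 108 bases before the start, and in Rbpj (chr5:53590096-53590345, plus strand) 149 and 65 bases before it. RefSeq gives Rbpj several starts, and the window shown lies before one that is inside the span of the gene given below. A second Rbpj window (chr5:53590236-53590485), which overlaps it, holds 1 match.
Lfng promoter: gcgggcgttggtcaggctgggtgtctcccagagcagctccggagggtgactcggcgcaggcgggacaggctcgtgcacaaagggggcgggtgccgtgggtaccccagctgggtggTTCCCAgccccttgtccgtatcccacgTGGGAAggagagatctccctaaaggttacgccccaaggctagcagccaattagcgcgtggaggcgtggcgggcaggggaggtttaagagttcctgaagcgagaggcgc
Rbpj promoter: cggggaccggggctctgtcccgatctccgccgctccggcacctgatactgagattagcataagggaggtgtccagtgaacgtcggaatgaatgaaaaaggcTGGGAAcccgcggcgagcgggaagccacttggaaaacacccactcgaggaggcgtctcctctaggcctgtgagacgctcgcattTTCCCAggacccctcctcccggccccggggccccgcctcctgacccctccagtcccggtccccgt

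Levels are given as FPKM, which counts the fragments on a kilobase of transcript as a proportion of the library. The length used for a gene can exceed that of its listed transcripts, as for Pofut1 (9466 bases against at most 5600). Levels of different genes can therefore be set side by side only roughly. Differences are of log2(FPKM + 1), a scale that makes changes of low genes look smaller, with the standard error (SE) and the adjusted p of limma over all 16700 tested genes. A difference was called at an adjusted p under 0.05. All 9 genes passed the filter, which asked that 2 or more libraries reach 1 FPKM. Lfng and Mfng passed through EC alone, since no SC or SMF library reached 1 FPKM for them. Their calls as higher in EC, and counts that include these calls, are therefore not independent of the filter. In this bulk RNA, fewer cells of a type and less RNA per cell cannot be told apart.

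The marker sums matched the labels. The 8 endothelial markers summed to between 1199 and 1232 FPKM in EC and to at most 24.4 elsewhere, and the 7 satellite cell markers to between 748.5 and 771.5 in SC and at most 28.4 elsewhere. The 8 fibre markers summed to at least 28255 in SMF, to between 157 and 249 in SC and to between 10.8 and 18.2 in EC. Sums of the other lists were as follows. The 7 pericyte and smooth muscle markers reached 222 to 676 in EC, 159 to 204 in SC and 28.6 to 29.8 in SMF. Acta2 alone gave 135 and 194 of the SC sums and Abcc9 gave 21.5 to 22.7 of the SMF sums, while Rgs5, a defining pericyte marker, was at 153 to 473 in EC, 4.81 and 11.7 in SC and 2.82 to 3.98 in SMF. The 6 fibro-adipogenic markers summed to 17.6 to 83.5 in EC, 252 to 256 in SC and 22.1 to 43.5 in SMF. Dpt gave 103 and 95.5 of the SC sums and Col3a1 gave 108 and 113. Pdgfra, a defining marker, was at no more than 2.57 in any library. In this list 2 genes were called higher in SC than in EC, beside 21.2% of all tested genes. None was called higher in EC, and 4 were not called. The 8 immune markers summed to 9.45 to 75.0 in EC, 27.0 to 31.2 in SC and 1.01 to 3.41 in SMF, and the 6 erythroid markers to 270 to 582, 63.9 to 113 and 11.6 to 52.7. The 4 Schwann and 4 tenocyte markers stayed at or below 4.35 and 17.1. EC2 stood apart, with the lowest of the EC sums in the pericyte, fibro-adipogenic, immune and erythroid lists and the lowest library weight (0.364). The part of RNA from other cell types in the differences below was not tested. Coverage corresponded to 277.9 to 367.8 Mb of aligned bases for the sorted cells and 525.5 to 580.8 Mb for the fibres, so that 1 fragment on 1 kb of transcript equals 0.272 to 0.360 FPKM in the former and 0.172 to 0.190 in the latter. The 10 most abundant genes took 63.7% to 75.1% of the summed FPKM in the sorted cells and 76.2% to 78.9% in the fibres.

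EC and SC differed in 5 of the 9 genes, beside 37.7% of all tested genes. Rbpj was higher in SC, beside 21.2% of all tested genes called higher in SC, and Lfng, Mfng, Adam10 and Numb were higher in EC, beside 16.4% called higher in EC. Lfng and Mfng had passed the filter through EC alone. Rfng, Pofut1, Adam17 and Ncstn were not called. The median difference of the 9 genes, SC minus EC, was -0.46, beside 0.11 over all tested genes. Against fibres, 7 of 9 genes were higher in SC (56.5% of all genes were) and 9 of 9 were higher in EC (55.5% of all genes were), with none higher in SMF (8.57% and 10.8% of all genes). In either direction, 65.1% of all genes were called for SC minus SMF and 66.3% for EC minus SMF. These last counts stand against a shift of the whole table, since the median over all tested genes was 0.93 for SC minus SMF and 0.85 for EC minus SMF. The medians of the 9 genes were 1.67 and 2.13. After median-of-ratios scaling, 27.4% of all genes were higher in SC than in SMF and 22.5% lower, 31.8% were higher in EC than in SMF and 24.9% lower, and the medians over all genes fell to 0.21 and 0.19. Under it 5 and 6 of 9 members were called, each higher in SC or EC. For SC minus EC it gave 5 called members, beside 15.6% of all genes higher in SC and 16.9% higher in EC. Without EC2, 5 members were called for SC minus EC (20.7% of all genes higher in SC, 18.4% higher in EC), 8 for SC minus SMF (60.1% higher in SC, 9.11% lower) and 9 for EC minus SMF (58.4% higher in EC, 10.5% lower).

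**Figure D1:**
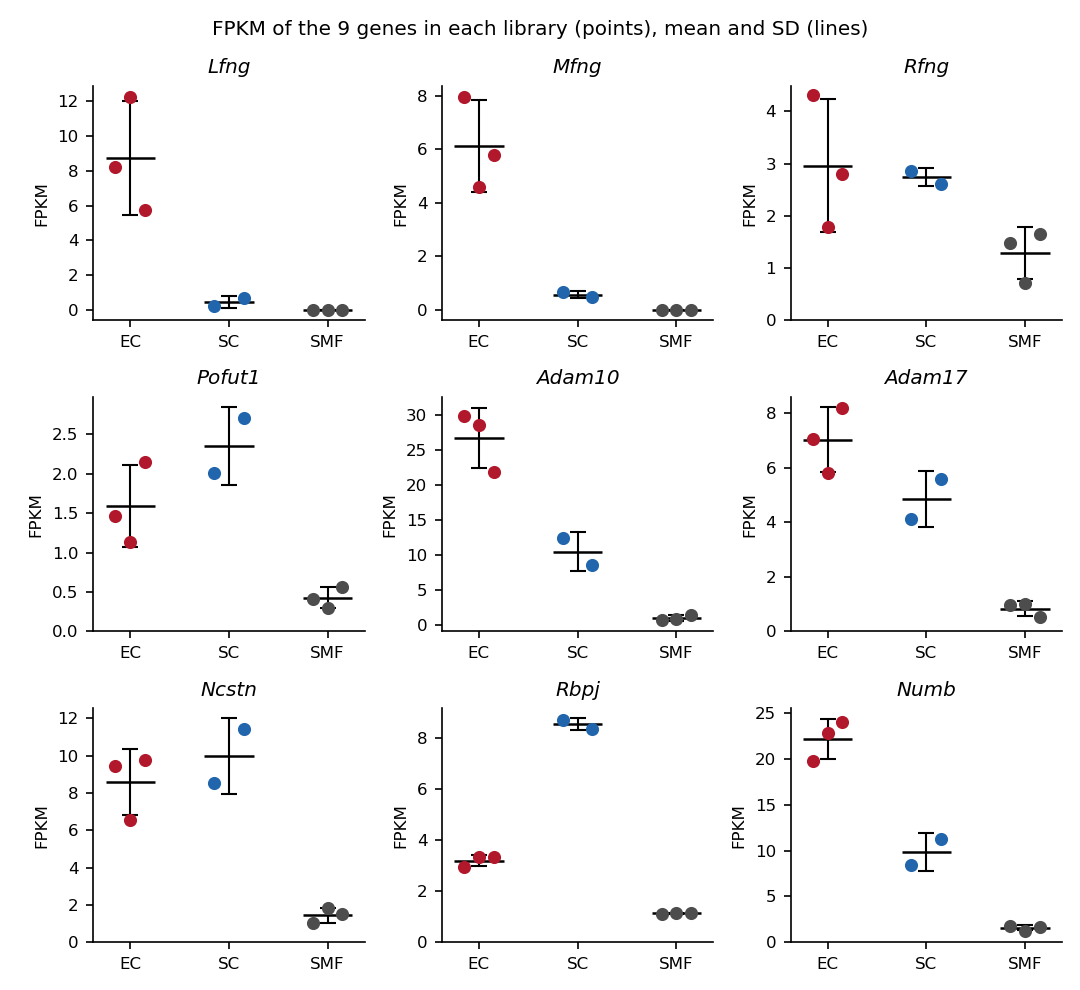
FPKM of the 9 genes (vertical axes, each with its own range) in EC, SC and SMF (horizontal axes); points are libraries, the long bar is the mean and the whiskers the SD. Lfng, Mfng, Adam10, Adam17 and Numb are highest in EC with no overlap, although Adam17 was not called between EC and SC. Rbpj is highest in SC, and Rfng, Pofut1 and Ncstn overlap between EC and SC. The share of all genes without overlap was not counted.

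**Figure D2:**
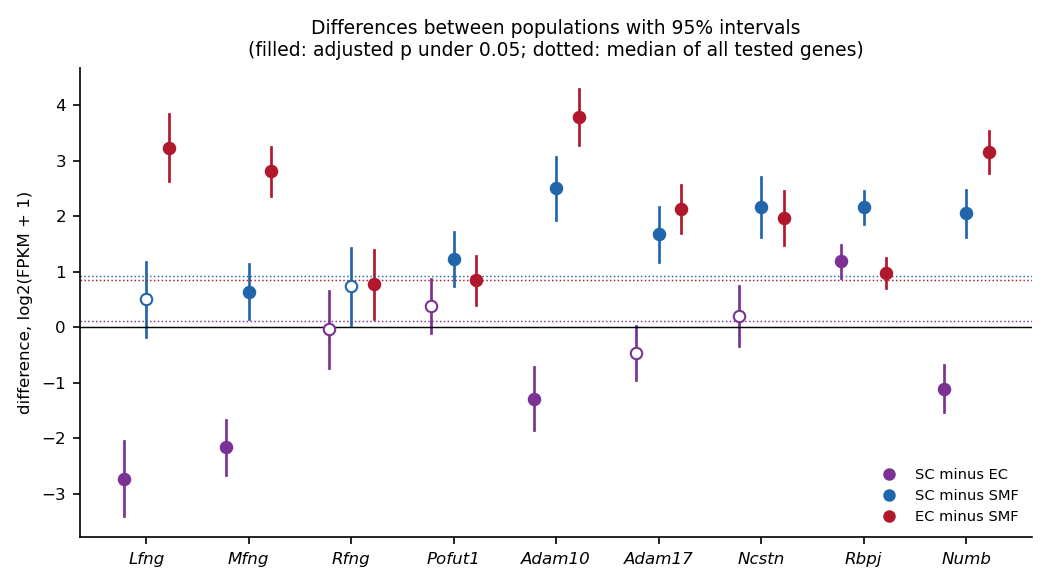
Difference in log2(FPKM + 1) (vertical axis) for each gene (horizontal axis) in the 3 comparisons, with 95% confidence intervals; filled points have an adjusted p under 0.05, and dotted lines show the medians of all tested genes, 0.11, 0.93 and 0.85. The SC minus EC points run from -2.72 for Lfng to 1.18 for Rbpj.

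Lfng (chr5:140607341-140615545, GRCm38.p6, as for all positions that follow) encodes Lunatic fringe. Its level was 8.23, 12.3 and 5.72 FPKM in EC1, EC2 and EC3, 0.189 and 0.693 in SC1 and SC3, and it was listed at 0 in the 3 fibre libraries. EC stood above SC without overlap, and SC rested on about 1.48 and 4.82 fragments (of 100 bases, a pair of reads) against 42.6 to 113 in EC. The difference SC minus EC was -2.72 (SE 0.29, limma adjusted p = 0.000254), and that of EC over SMF was 3.23 (SE 0.26, adjusted p = 1.8e-05, limma). Between SC and SMF, Lfng was not called (0.50, SE 0.29, limma adjusted p = 0.161), whereas with a pseudocount of 0.1 in place of 1 it was (2.26, limma adjusted p = 0.00612). No fold is given, since the values in SC are those of a few fragments and those in SMF are 0.

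Mfng (chr15:78755882-78773516), the Manic fringe gene, had a similar distribution. EC1, EC2 and EC3 had 7.96, 4.60 and 5.80 FPKM, SC1 and SC3 had 0.649 and 0.476, and the fibre libraries were listed at 0. The groups did not overlap, and SC again rested on few fragments, 5.32 and 3.46. SC minus EC was -2.16 (SE 0.21, limma adjusted p = 0.000159) and EC minus SMF was 2.80 (SE 0.19, limma adjusted p = 6.7e-06). SC minus SMF was 0.64 (SE 0.21, limma adjusted p = 0.0278), and this call was lost in 10 of 16 alternatives, among them the omission of either SC library (adjusted p = 0.116 without SC1 and 0.0603 without SC3, limma).

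Rfng (chr11:120780745-120784251), which encodes Radical fringe, was the Fringe gene with fragments in every library. It was measured at 4.31, 1.78 and 2.81 FPKM in EC1 to EC3, 2.86 and 2.62 in SC1 and SC3, and 1.48, 0.717 and 1.66 in SMF1 to SMF3. The EC values spanned the SC values, and all 8 libraries rested on 10.2 to 34.0 fragments. SC and EC could not be told apart (-0.03, 95% interval -0.73 to 0.66, limma adjusted p = 0.946). SC minus SMF was 0.74 (SE 0.30, limma adjusted p = 0.0603). EC minus SMF was 0.77 (SE 0.27, limma adjusted p = 0.0336), but it reversed after median-of-ratios (-0.16) and upper-quartile scaling (-0.04), so that no direction against fibres holds. The EC call was also lost without EC1, EC3, SMF1 or SMF2, with limma adjusted p from 0.0562 to 0.113.

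Summed over the 3 Fringe genes, the level was 17.8 ± 3.17 FPKM (SD, n = 3) in EC, 3.74 ± 0.0596 (SD, n = 2) in SC and 1.29 ± 0.50 (SD, n = 3) in SMF. A share within a library does not depend on its scaling. Lfng made up 40.2%, 65.8% and 39.9% of the Fringe FPKM in EC1 to EC3, 5.10% and 18.3% in SC1 and SC3, and none of it in the fibre libraries, where it was listed at 0. The 3 populations differed in this share by an exact permutation test of the between-group sum of squares over the 560 arrangements of the libraries (p = 0.00357, the smallest this design can give). Mfng held 34.7% ± 8.70 (SD, n = 3) in EC and 15.1% ± 3.51 (SD, n = 2) in SC. Rfng accounted for 16.7% ± 6.25 (SD, n = 3) in EC, for 73.3% ± 5.81 (SD, n = 2) in SC, and for all of the Fringe FPKM in each fibre library. Thus most Fringe RNA was Lfng and Mfng in EC and Rfng in SC, while the Rfng level itself did not separate these cells.

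**Figure D3:**
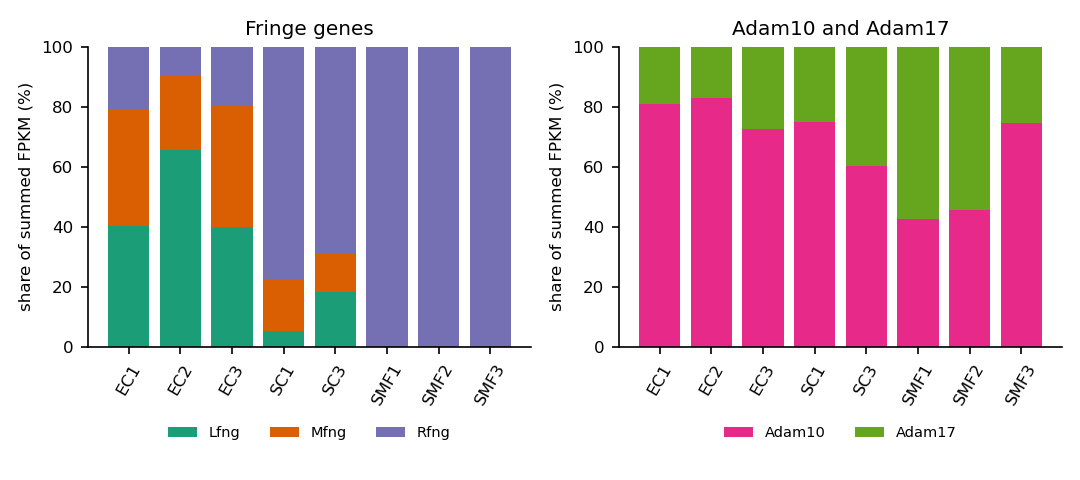
Share of summed FPKM in percent (vertical axes) for each library (horizontal axes): at left the Fringe genes, at right Adam10 and Adam17; each bar adds up to 100%. Rfng fills 9.55% to 21.0% of the EC bars, 69.1% and 77.4% of the SC bars and the whole of the SMF bars, and Adam10 ranges from 42.5% in SMF1 to 83.1% in EC2.

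Pofut1 (chr2:153241532-153271029), whose product adds the O-fucose that the Fringe enzymes extend, was low in every population. Its level was 1.47, 1.14 and 2.16 FPKM in EC1 to EC3, 2.01 and 2.70 in SC1 and SC3, and 0.418, 0.299 and 0.562 in SMF1 to SMF3. EC and SC overlapped and fibres lay below both. SC minus EC was 0.39 (95% interval -0.10 to 0.88, limma adjusted p = 0.195). Pofut1 was 5.53-fold higher in SC than in SMF (log2 difference 1.23, SE 0.21, limma adjusted p = 0.00131) and 3.73-fold higher in EC (0.85, SE 0.19, limma adjusted p = 0.00473). After median-of-ratios scaling neither was called (limma adjusted p = 0.0717 and 0.283), and EC minus SMF was not called after upper-quartile scaling either (limma adjusted p = 0.161).

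Of 8 other Notch glycosyltransferase genes tested, SC minus EC gave 1 call higher in SC, 2 higher in EC and 5 not called. Of all tested genes, 21.2% were called higher in SC, 16.4% higher in EC and 37.7% in either direction. Gxylt2, which adds xylose to the O-glucose on Notch repeats, was at 12.0 ± 3.27 FPKM (SD, n = 2) in SC and 0.274 ± 0.181 (SD, n = 3) in EC (log2 difference 3.34, limma adjusted p = 1.4e-05). Eogt, which adds O-linked N-acetylglucosamine to extracellular repeats, was at 9.11 ± 0.960 (SD, n = 3) in EC and 0.940 ± 0.293 (SD, n = 2) in SC (-2.39, limma adjusted p = 2.5e-05). B4galt1, a galactosyltransferase that can extend the Fringe-made sugar, was at 10.1 ± 0.330 (SD, n = 3) and 3.33 ± 0.236 (SD, n = 2) (-1.36, limma adjusted p = 0.00014). Against SMF, 7 of these 8 were called higher in SC (56.5% of all genes) and 7 of 8 higher in EC (55.5% of all genes). After median-of-ratios scaling these counts were 5 and 7 of 8, beside 27.4% and 31.8% of all genes. As an example, Kdelc2, another O-glucosyltransferase gene, was at 13.6 (SC), 9.45 (EC) and 0.471 FPKM (SMF).

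The protease genes were higher in EC and SC than in fibres, and only Adam10 was called between EC and SC. Adam10 (chr9:70678944-70780229), the main sheddase of Notch, was at 29.8, 28.5 and 21.8 FPKM in EC1 to EC3, at 12.4 and 8.51 in SC1 and SC3, and at 0.719, 0.859 and 1.5 in SMF1 to SMF3. The 3 groups did not overlap and each neighbouring pair in this order was called. EC was 2.55-fold above SC (SC minus EC -1.28, SE 0.24, limma adjusted p = 0.00444). SC was 10.2-fold above SMF (2.50, SE 0.24, limma adjusted p = 6.5e-05) and EC 26.0-fold above SMF (3.78, SE 0.22, limma adjusted p = 2.9e-06). These 3 calls held in all 16 alternatives, although the differences from SMF were 1.38 (SC) and 2.78 (EC) after median-of-ratios scaling.

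Adam17 (chr12:21323509-21373632), the sheddase of tumour necrosis factor and of several growth factors, was at 7.06, 5.81 and 8.18 FPKM in EC1 to EC3, 4.11 and 5.57 in SC1 and SC3, and 0.974, 1.02 and 0.513 in SMF1 to SMF3. Although every EC value lay above both SC values, the difference was not called (SC minus EC -0.46, 95% interval -0.94 to 0.03, limma adjusted p = 0.130). After a scaling that leaves out each group's 50 most abundant genes it was (-0.73, limma adjusted p = 0.0489). Both cell populations exceeded SMF, SC by 5.80-fold (log2 difference 1.67, SE 0.21, limma adjusted p = 0.000258) and EC by 8.39-fold (2.13, SE 0.19, limma adjusted p = 3.0e-05). Median-of-ratios scaling left differences of 0.65 (limma adjusted p = 0.0347) and 1.21. Iah1 overlaps the locus in the annotation and shares 6.05% of the Adam17 windows of 50 bases, and its own level was at most 3.34 FPKM in any library.

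Adam10 and Adam17 together summed to 33.7 ± 3.47 FPKM (SD, n = 3) in EC, 15.3 ± 1.73 (SD, n = 2) in SC and 1.86 ± 0.160 (SD, n = 3) in SMF. Adam10 held 80.9%, 83.1% and 72.7% of this sum in EC1 to EC3, 75.1% and 60.4% in SC1 and SC3, and 42.5%, 45.7% and 74.5% in SMF1 to SMF3. SMF3 lay among the EC and SC values, and the exact permutation test over 560 arrangements did not pass (p = 0.111). Without SMF3 it did (exact permutation, p = 0.0286), so that this result rests on 1 fibre library.

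Among 8 tested genes for ADAM partners and inhibitors, none was called higher in SC than in EC, beside 21.2% of all genes. Called higher in EC were 4, beside 16.4% of all genes, and 4 were not called. Timp3, a secreted inhibitor of metalloproteinases including both ADAMs, was at 166.6 ± 3.9 FPKM (SD, n = 3) in EC, 25.4 ± 7.88 (SD, n = 2) in SC and 4.73 ± 0.0775 (SD, n = 3) in SMF (SC minus EC -2.70, limma adjusted p = 3.4e-05). Tspan14, a tetraspanin that helps ADAM10 mature and reach the surface, was at 14.9 ± 2.88 (SD, n = 3) in EC and 2.34 ± 0.887 (SD, n = 2) in SC (-2.26, limma adjusted p = 0.000259). Tspan15, another ADAM10 partner, had 9.64 FPKM in EC, 5.21 in SC and 0.642 in SMF. Against SMF, 7 of the 8 were higher in SC and 8 of 8 higher in EC, beside 56.5% and 55.5% of all genes. After median-of-ratios scaling 5 and 7 of 8 were, beside 27.4% and 31.8%.

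Ncstn (chr1:172066013-172082789) encodes nicastrin, the glycoprotein subunit of gamma-secretase. EC1 to EC3 had 9.45, 6.56 and 9.78 FPKM, SC1 and SC3 had 8.52 and 11.4, and SMF1 to SMF3 had 1.02, 1.83 and 1.52. EC and SC overlapped and could not be told apart (SC minus EC 0.20, 95% interval -0.34 to 0.74, limma adjusted p = 0.554), and the sign turned after scaling without the 50 most abundant genes. Relative to SMF, Ncstn was 6.84-fold higher in SC (2.16, SE 0.23, limma adjusted p = 0.000114) and 5.90-fold higher in EC (1.96, SE 0.21, limma adjusted p = 8.3e-05), and both calls held in all 16 alternatives, with smaller differences of 0.95 and 0.91 after median-of-ratios scaling. Copa overlaps the locus and shares windows with it, and Copa was itself at 11 to 20.5 FPKM in EC and SC. Whether strand was used in assigning reads is not stated in these sources.

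The other gamma-secretase subunit genes gave 1 call among 5 tested between EC and SC, beside 37.7% of all tested genes. Psenen, the PEN-2 subunit gene, was at 12.0 ± 1.03 FPKM (SD, n = 3) in EC, 6.34 ± 0.454 (SD, n = 2) in SC and 9.33 ± 1.52 (SD, n = 3) in SMF. It was the 1 subunit gene called higher in SMF than in SC (SC minus SMF -0.48, limma adjusted p = 0.0372), beside 8.57% of all genes. The other 4 tested were called higher in SC, beside 56.5% of all genes (2 after median-of-ratios scaling, beside 27.4%). The scaffold gene Aph1a was at 3.95, 2.97 and 0.908 FPKM in EC, SC and SMF (SC minus SMF 1.05, limma adjusted p = 0.00176).

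Rbpj (chr5:53555779-53657445) was the 1 gene of the 9 called higher in SC than in EC. It was at 2.94, 3.32 and 3.34 FPKM in EC1 to EC3, 8.71 and 8.36 in SC1 and SC3, and 1.12, 1.13 and 1.14 in SMF1 to SMF3. The 3 groups were tight and well apart, in the order SC, EC, SMF. SC was 2.67-fold above EC (1.18, SE 0.13, limma adjusted p = 0.00028) and 7.54-fold above SMF (2.16, SE 0.13, limma adjusted p = 7.5e-06, and 1.01 after median-of-ratios scaling). EC was 2.83-fold above SMF (0.98, SE 0.11, limma adjusted p = 0.00015), but this call was lost after median-of-ratios (0.05, limma adjusted p = 0.769) and upper-quartile scaling (0.16, limma adjusted p = 0.283). In the deposited TPM table (transcript abundance scaled to a fixed total) the same order held, with 9.12, 13.6 and 13.4 in EC, 21.2 and 29.4 in SC and 3.50, 2.40 and 2.16 in SMF.

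The processed copy carried more FPKM than Rbpj in every library. FPKM is a level per kilobase, and the copy has 1441 bases while listed Rbpj transcripts reach 5485. More FPKM therefore does not mean more fragments, and the length used for Rbpj could not be derived. Rbpsuh-rs3 was at 10.6, 7.90 and 6.07 FPKM in EC1 to EC3, 17.7 and 21.2 in SC1 and SC3, and 5.60, 5.58 and 6.55 in SMF1 to SMF3. Its values followed the same grouping, with SC above EC (1.18, SE 0.22, limma adjusted p = 0.00435) and above SMF (1.56, SE 0.22, limma adjusted p = 0.000472), and EC and SMF overlapping (0.38, 95% interval -0.07 to 0.84, limma adjusted p = 0.120). Given the near identity shown above, fragments from the copied span could be split between the 2 genes by the authors' assignment. The Rbpj level is uncertain to that extent. Rbpj held 21.8%, 29.6% and 35.5% of the summed FPKM of both in EC, 32.9% and 28.3% in SC, and 16.7%, 16.9% and 14.8% in SMF. These are not shares of fragments. With both added, the sum was 13.5, 11.2 and 9.41 FPKM in EC, 26.4 and 29.5 in SC and 6.72, 6.72 and 7.69 in SMF. All 3 differences stayed called with the sum: 1.24 for SC minus EC (limma adjusted p = 0.00116), 1.85 for SC minus SMF (limma adjusted p = 6.2e-05) and 0.61 for EC minus SMF (limma adjusted p = 0.00956). This sum was chosen after seeing the data, and in it a fragment on the shorter copy weighs more than a fragment on Rbpj.

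**Figure D4:**
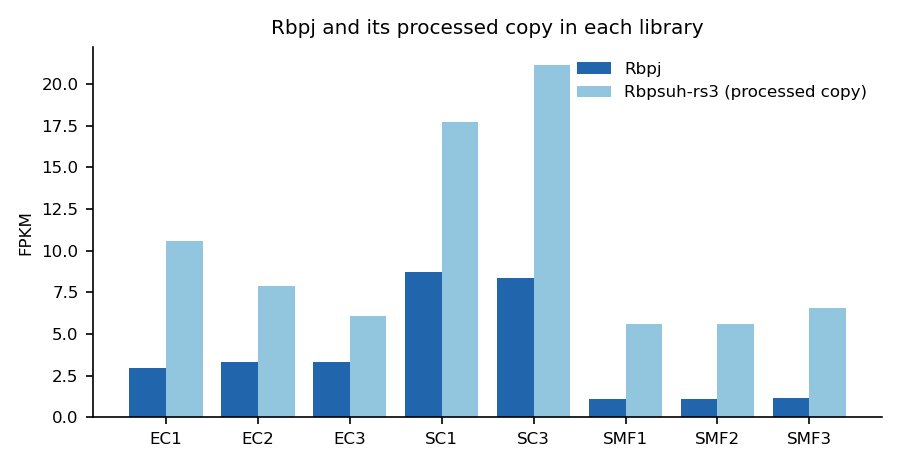
FPKM (vertical axis) of Rbpj (dark bars) and of its processed copy Rbpsuh-rs3 (light bars) in each library (horizontal axis). The copy has more FPKM than Rbpj in all 8 libraries, which is a level per length and not a count of fragments. Both are highest in SC1 and SC3.

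Rbpjl, the paralog of Rbpj that does not bind the Notch intracellular domain, was looked at after its values were seen. It was at 0.111, 0.0473 and 0 FPKM in EC, 1.68 and 1.17 in SC, and listed at 0 in SMF (SC minus EC 1.2, SE 0.19, limma adjusted p = 0.00204). Among the listed Rbpj transcripts, ENSMUST00000202092, of 678 bases and 4 exons, had 6.78, 9.95 and 7.55 FPKM in EC, 10.2 and 12.4 in SC and 0 in the fibre libraries. Since 4 transcript numbers within the gene are absent from the transcript table, no share of Rbpj transcripts was drawn from it.

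The coactivator and corepressor genes of RBPJ were read against the 37.7% of all tested genes called between EC and SC. Of 8 coactivator genes, Maml2, a Mastermind gene whose product bridges the Notch complex to acetyltransferases, was called, at 10.8 ± 0.891 FPKM (SD, n = 3) in EC and 3.45 ± 0.0328 (SD, n = 2) in SC (-1.40, limma adjusted p = 0.000276), and 7 were not. Of 16 corepressor genes, 4 were called higher in SC, 2 higher in EC and 10 not. Fhl1, a LIM-domain gene with a splice form that binds RBPJ and other forms that are abundant in muscle, was at 8.75, 23.1 and 21.5 FPKM in EC, SC and SMF, and it was the 1 corepressor gene called higher in SMF than in EC (EC minus SMF -1.2, limma adjusted p = 0.000533). Tle4 and Tle1, Groucho family genes, were higher in EC (-0.49 and -0.69, limma adjusted p = 0.0403 and 0.0332). Against SMF, 7 of 8 coactivator genes were higher in SC and 7 of 8 in EC, and 12 of 16 corepressor genes in SC and 13 of 16 in EC, beside 56.5% and 55.5% of all genes. Median-of-ratios scaling, under which 27.4% and 31.8% of all genes were higher, left 5 and 5 of 8 coactivator genes and 6 and 8 of 16 corepressor genes.

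Numb (chr12:83794034-83921942) was highest in EC. It was at 19.8, 22.8 and 24.0 FPKM in EC1 to EC3, 8.38 and 11.3 in SC1 and SC3, and 1.83, 1.27 and 1.72 in SMF1 to SMF3. No 2 groups overlapped. EC was 2.25-fold above SC (SC minus EC -1.10, SE 0.18, limma adjusted p = 0.00246), 13.8-fold above SMF (3.15, SE 0.16, limma adjusted p = 1.8e-06), and SC 6.12-fold above SMF (2.05, SE 0.18, limma adjusted p = 4.5e-05). The differences from SMF were 2.04 for EC and 0.82 for SC after median-of-ratios scaling, both still called. In the TPM table SC1 and SC3 were wide apart, at 5.67 and 18.1, and SC minus EC was not called there (-1.11, SE 0.42, limma adjusted p = 0.0683). Papln overlaps the locus and accounts for most of the 36.7% of Numb windows of 50 bases that another gene shares, but its own level was 0.660 to 3.12 FPKM in EC, 0 and 0.278 in SC and 0 in SMF.

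Of 9 listed Numb transcripts, the authors' assignment put FPKM on 2. The longer, ENSMUST00000117217 with 11 exons and 3549 bases, lacks both the PTB and the PRR exon shown above and holds both junctions. It was at 19.1, 22 and 22.7 FPKM in EC, 8.61 and 10.1 in SC and 1.88, 1.31 and 1.56 in SMF. The other, ENSMUST00000125089 of 441 bases and 3 exons, holds neither exon and neither junction, so its level does not show whether the exons were left out. It was at 9.71, 5.88 and 15.4 in EC, 0 and 11.9 in SC, and 0, 0 and 1.69 in SMF. The 5 transcripts listed with the PTB exon and the 3 listed with the PRR exon were at 0 in all 8 libraries. The listed transcripts were computed to hold 96.9% to 100% of the Numb fragments. The gene length used for this was the highest ratio of listed bases to gene FPKM among the libraries, so 100% is set by construction. The figure therefore cannot show whether fragments fell on the 2 transcript numbers of the gene that are absent from the table. Assignment from 50-base reads sets the transcript values, so they are given without a test.

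Genes for Numb partners and Notch ubiquitin ligases went both ways between EC and SC. Of 17 tested, 6 were called higher in SC, beside 21.2% of all genes, and 5 higher in EC, beside 16.4%. The other 6 were not called. Dtx4, a Deltex ubiquitin ligase gene, was at 95.3 ± 21.9 FPKM (SD, n = 2) in SC, 0.534 ± 0.265 (SD, n = 3) in EC and 0.157 ± 0.0215 (SD, n = 3) in SMF (SC minus EC 5.97, limma adjusted p = 1.2e-06). Nedd4, a ligase gene of the HECT class, was at 65.6 ± 5.78 (SD, n = 2), 40.1 ± 3.80 (SD, n = 3) and 15.5 ± 1.41 (SD, n = 3) in the same order (0.70, limma adjusted p = 0.0116). Lnx2, a gene for a Numb-binding ubiquitin ligase, was higher in EC, at 13.5 ± 1.39 (SD, n = 3) against 4.32 ± 0.802 (SD, n = 2) in SC (-1.45, limma adjusted p = 0.000447). Neurl1a, a Neuralized ligase gene, was the 1 gene of this list called higher in SMF than in both cell types. Of all genes, 8.57% were called higher in SMF than in SC and 10.8% higher than in EC. Neurl1a was at 7.73 ± 0.725 (SD, n = 3) in SMF, 1.61 ± 0.0530 (SD, n = 2) in SC and 0.257 ± 0.223 (SD, n = 3) in EC (SC minus SMF -1.74, limma adjusted p = 0.000113).

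The pathway's ligands, receptors and targets are set beside the 9 genes by their counts. These read against 21.2% of all tested genes called higher in SC than in EC and 16.4% called higher in EC. Of 4 ligand genes, 3 were called higher in EC than in SC and none higher in SC, and Dll4, the endothelial Delta ligand, was at 46.1 ± 13.1 FPKM (SD, n = 3) in EC and 0.632 ± 0.190 (SD, n = 2) in SC. Of 4 receptor genes, Notch2 and Notch3 were higher in SC and Notch4 in EC. Of 5 target genes, Heyl was higher in SC (73.5 ± 0.919, SD, n = 2, against 4.2 ± 2.13, SD, n = 3, limma adjusted p = 0.000115). Nrarp, a feedback inhibitor of the Notch complex, was higher in EC (24.8 ± 1.42, SD, n = 3, against 1.82 ± 0.0132, SD, n = 2, limma adjusted p = 6.0e-06), as was Hey1. Hes1 was at 42.4, 38.8 and 14.2 in EC, SC and SMF, and was called against SMF only (SC minus SMF 1.41, limma adjusted p = 0.000604).

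**Figure D5:**
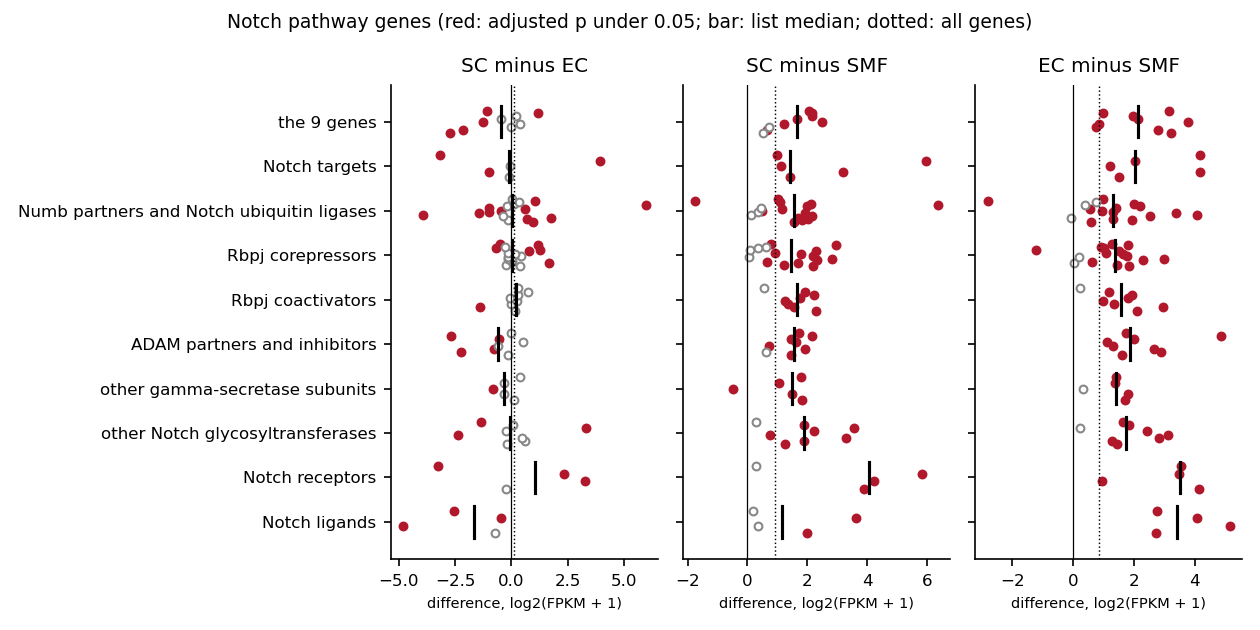
Difference in log2(FPKM + 1) (horizontal axes) for the genes of each Notch list (vertical axis) in the 3 comparisons; red points have an adjusted p under 0.05, open points do not, bars are list medians and dotted lines the medians of all tested genes. The 9 genes have medians of -0.46, 1.67 and 2.13, beside 0.11, 0.93 and 0.85 over all genes.

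Genes whose profile over the 8 libraries was most like that of a member were found by the mean absolute difference of log2(FPKM + 1), centred on each gene's mean, among 11288 candidates. Closest to Lfng was Tal1 (0.12), a transcription factor gene of blood and endothelium, and closest to Mfng was Sipa1l2 (0.12). Adam10 was most like Cd47 (0.11), a surface receptor gene, and Numb most like Tcf4 (0.07), a bHLH factor gene. Rbpj was closest to Crtc3 (0.08), a CREB coactivator gene, at 2.83, 2.76 and 3.2 FPKM in EC, 7.38 and 9.21 in SC and 0.862, 1.00 and 0.962 in SMF. Pofut1 was nearest to Pomt2 (0.07), Ncstn to Hnrnpm (0.08) and Rfng to Pou6f1 (0.11). These likenesses are over libraries of 3 populations and describe a shared order of levels.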

How the data were processed

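RNA of 8 mouse muscle libraries (EC, n = 3; SC, n = 2; SMF, n = 3) was compared, grouped by sample titles. Per the labels' protocols, 10 ng of total RNA entered a stranded, random-primed kit, pairs of 50 bp were read, with 20 M reads expected, and 1 unnamed sample missed the stated RNA integrity. FastQC, Trimmomatic, HISAT2, bedtools and StringTie were used with the mm10 build, per the submitters' processing notes. Neither versions nor settings were given in the sources used here. The deposited gene table holds FPKM for 36048 genes per the file headers, the second deposited table holds TPM for 46435 loci, and the deposited transcript table holds FPKM and read coverage, a signal per base, for 89871 transcripts. SC replicate 2 is not analysed here, and 0 columns of other samples were left unused.

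Differences were fitted with limma 3.58.1 (R 4.3.3) on log2(FPKM + 1) with its trend option, 1 mean per population and no block, over all 8 libraries. Tests were two-sided, over the 16700 genes that reached 1 FPKM in 2 or more libraries, adjusted by Benjamini-Hochberg and called under 0.05. Since FPKM divides by the fragments of the whole library, abundant genes shift all others, and 3 other scalings were tried. Shares were tested by exact permutation. Fragments were computed from coverage over length at 100 bases each. Depth and precision differ: counting error is largest for genes with few fragments. In 18407 genes with 1 listed transcript, 95.5% of gene values equal the transcript value within 0.001. The limma fit was tried on simulated data for these 16700 genes. For SC minus EC it recovered 15 of 50 genes changed by 1 log2 unit and 40 of 50 changed by 2, and for EC minus SMF 18 and 42 of 50. Far fewer genes were changed there than were called in the data, so these rates do not give the sensitivity of the comparisons. Named genes were all 9 members, up to 2 called genes of highest mean per list, direction and comparison, of which those that bear most on the members are printed, and the closest of each member's 3 nearest profiles, with some items not reported here. Members and lists were chosen with earlier results of these data known. Promoters and positions are from RefSeq (GRCm38.p6), transcripts from GENCODE by identifier.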

Additional observations from a re-analysis of the deposited data

How the results depend on the processing

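The 27 differences of the 9 genes (3 comparisons each) were computed under 16 alternatives and, for Rbpj, with its copy added after seeing the data: of 435 values, 400 kept their direction and side of the threshold, 22 lost the call, 5 gained it and 8 reversed. The reversed ones were Rfng for SC minus EC (-0.03 as deposited, 0.0038 in the TPM table, and -0.27 to 0.20 with single libraries left out, above 0 without EC1 and without SC3), for SC minus SMF (-0.30 after median-of-ratios and -0.066 after upper-quartile scaling) and for EC minus SMF (-0.16 and -0.039 after the same), and Ncstn for SC minus EC (-0.12 after scaling without the 50 most abundant genes). The cause was not tested. Members called ranged from 4 to 6 for SC minus EC, 5 to 8 for SC minus SMF and 6 to 9 for EC minus SMF. Genes called between SC and EC fell from 6288 to 4042 without SC1 and 4115 without SC3, which leaves 1 SC library whose spread is assumed to be that of the others, and the omission of single libraries gave 4042 to 6368. Calls higher in SC than in EC made up 56.3%, but 39% after scaling without the 50 most abundant genes and 42.1% without SC3. Of the calls between SC and SMF, 86.8% were higher in SC (54.9%, 65% and 69.2% after median-of-ratios, upper-quartile and the former scaling), and of those between EC and SMF 83.7% were higher in EC (56.1%, 60.1% and 72.8%). The Adam10 share, EC minus SC, was 11.1 percentage points, and -6.59 over listed transcripts (exact permutation over the 3 populations, p = 0.743). There Adam17 had no listed transcript above 0 in EC2, SC3 and SMF3. Single libraries left out gave 3.79 to 18.5 points, with a call only without SMF3 (11.1 points, exact permutation p = 0.0286).

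Whether equal replicate numbers pair the samples could not be decided. Correlations of deviations were -0.06 to 0.09 in 7 pairs of equal number and -0.09 to 0.06 in 14 others. Deviations of the SC libraries mirror each other by construction, so their correlations come with opposite signs and set the ends of both ranges. Low correlations of this kind do not show that samples were unpaired. With the replicate number as a block, 5515, 10279 and 11020 genes and 5, 6 and 9 members were called for SC minus EC, SC minus SMF and EC minus SMF. Low depth limits Lfng and Mfng in SC, at 1.48 to 5.32 fragments, and Rfng, at 10.2 to 34.0.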
